A study of Mus musculus with 24 samples.

Results

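The postsynaptic density scaffold genes examined here are Dlg2, Dlg3, Dlg4, Dlgap1, Shank1, Shank2, Shank3, Homer2 and Homer3. They were chosen by name as scaffolds of excitatory synapses, by a rule that uses no measured value but with earlier results of these data known, and they are 9 of the 15232 genes in the deposited expression table. All 9 were detected in every library and passed the filter of a mean of at least 1 FPKM (fragments scaled by gene length and by the total of the library). Tissue from the anterior cingulate cortex, a frontal midline area, was profiled by poly(A) RNA sequencing in 24 mice with 1 library each. Every arm held 8 mice, 4 of either sex, and there were 3 arms. One arm was labelled wild type (WT) and untrained, one was labelled Thbs1/2 knockout (KO) and untrained, and one was labelled Thbs1/2 KO and had undergone training in a Skinner box under food deprivation. Thbs1 and Thbs2 encode thrombospondins, matrix proteins that astrocytes secrete and that promote synapse formation. Strain, age and the kind of knockout allele are not given in the sources used here, and trained WT animals were not analysed.

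Excitatory synapses sit opposite a dense protein lattice, the postsynaptic density, which holds glutamate receptors in place and couples them to enzymes and actin. The Dlg proteins lie closest to the membrane and bind the tails of NMDA receptors and of proteins attached to AMPA receptors. Dlgap1 bridges Dlg proteins to the Shank proteins deeper in the lattice, and Homer proteins tie Shanks to metabotropic glutamate receptors and to calcium stores. In cortex these proteins are made mainly by neurons, above all by pyramidal cells.

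Levels of the genes named in the knockout label ran opposite to that label. Thbs1 lay between 0.254 and 0.716 FPKM in the 8 libraries labelled WT, between 2.77 and 5.04 FPKM in the 8 untrained libraries labelled KO and between 3.62 and 5.91 FPKM in the 8 trained ones. Thbs2 lay between 1.52 and 2.31, between 2.82 and 3.95 and between 2.95 and 3.63 FPKM in the same arms. The values are for whole genes, and the exons that the allele removes were not examined, so genotypes are given below only as the labels state them. Between 12314984 and 27156301 reads per library were recovered from the FPKM values. The animal numbers in the labels were over 1000 for 1 of 8 untrained animals labelled WT, 2 of 8 untrained animals labelled KO, all of them male, and all 8 trained animals, so training and animal number cannot be told apart among females. One untrained male labelled KO, animal 480, stood apart from the other 23 libraries: the cortical pyramidal marker Slc17a7 was at 190.8 FPKM against 442.4 to 616.2 FPKM, and 9 striatal neuron markers summed to 789.9 FPKM against at most 409.5 FPKM. Its library was also the deepest, at 27156301 reads, and the next deepest had 20311584. Results are therefore given with and without animal 480. In bulk tissue, fewer neurons and less RNA per neuron cannot be told apart. Each animal gave 1 library, and the p-values of the comparisons weigh a difference between groups against the spread between these animals.

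FPKM is scaled by gene length, so levels can be set side by side between genes. Their order and the family shares below rest on the length assigned to each gene, and the transcript forms expressed were not measured. Dlg4, the most abundant Dlg scaffold, ranged from 221.4 to 280.1 FPKM with a median of 242.0 in the untrained arm labelled WT, from 212.8 to 260.6 FPKM (median 235.0) in the untrained arm labelled KO, and from 232.8 to 274.9 FPKM (median 242.4) in the trained arm. It was above every other member in all 24 libraries, and 99.1% of the genes in the table had a lower mean. Dlgap1, the bridge between Dlg and Shank, came next, with 73.0 to 84.4 FPKM (median 81.3) in the arm labelled WT, 57.3 to 81.8 FPKM (median 74.5) in the untrained arm labelled KO and 66.3 to 78.8 FPKM (median 73.2) in the trained arm. Dlg2, which helps to cluster NMDA receptors, followed at 64.2 to 74.8 FPKM (median 69.8), 60.3 to 78.3 FPKM (median 65.3) and 53.2 to 72.2 FPKM (median 64.9) in the same order of arms. The ranges of Dlgap1 and Dlg2 overlapped in each arm, although Dlgap1 was the higher in 8, 6 and 7 of the 8 libraries.

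Shank1, a scaffold of mature spines, had 45.5 to 66.6 FPKM (median 53.7) in the arm labelled WT, 41.5 to 62.6 FPKM (median 52.5) in the untrained arm labelled KO and 44.2 to 57.4 FPKM (median 49.2) in the trained arm. Dlg3, the X-linked Dlg gene and the one most associated with young synapses, was at 38.2 to 42.2 FPKM (median 40.8), 35.5 to 44.6 FPKM (median 39.9) and 40.3 to 47.2 FPKM (median 42.6). Shank1 was above Dlg3 in all 8 libraries labelled WT, with no overlap, and the ranges overlapped in the arms labelled KO. Shank2 had 24.1 to 26.9 FPKM (median 25.2), 18.1 to 30.1 FPKM (median 25.6) and 19.9 to 27.2 FPKM (median 24.2). Shank3, whose human counterpart is the gene of Phelan-McDermid syndrome, had 19.8 to 26.1 FPKM (median 22.5), 20.6 to 28.1 FPKM (median 22.9) and 20.7 to 24.01 FPKM (median 22.5). The ranges of Shank2 and Shank3 overlapped in every arm, although Shank2 was the higher in 7, 6 and 7 of the 8 libraries.

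The Homer genes were the lowest members. Homer2 was at 8.28 to 9.21 FPKM (median 8.78) in the arm labelled WT, 7.27 to 11.6 FPKM (median 8.15) in the untrained arm labelled KO and 5.87 to 10.2 FPKM (median 8.18) in the trained arm. Homer3 was at 2.23 to 2.86 FPKM (median 2.66), 2.03 to 3.57 FPKM (median 2.84) and 2.22 to 7.87 FPKM (median 2.86), resting on 78 to 354 reads per library. Every library labelled WT or KO had Shank3 above Homer2 and Homer2 above Homer3. Across animals of the arm labelled WT the coefficient of variation was lowest for Dlg3, 3.34%, and Homer2, 3.77%, and highest for Shank1, 13.5%. Read counting alone would give 1.67%, 2.56% and 1.24% for these genes. For Homer3 the coefficient of variation of 8.93% was below the 9.996% that counting alone gives, so differences between these animals were not detectable at that depth.

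**Figure D1:**
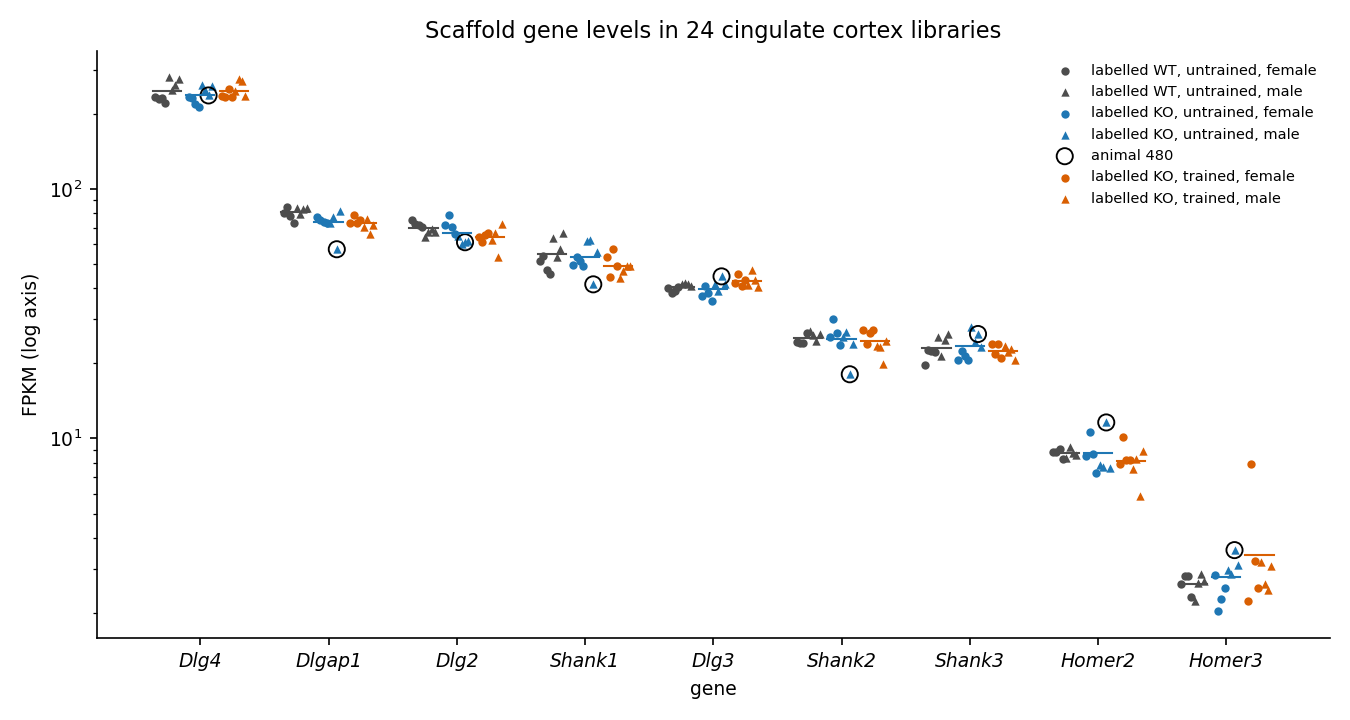
FPKM of each scaffold gene (log axis) in the 24 libraries, with circles for females, triangles for males, a bar at the mean of each arm and an open ring around animal 480. The order of genes runs from Dlg4 at 212.8 to 280.1 FPKM down to Homer3, where 1 trained female reached 7.87 FPKM, and the arms overlap for every gene.

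Promoters of Dlg2, Dlg4, Shank3 and Homer2 are shown because these genes belong to the pairs whose levels moved together most closely across animals. Each is the 250 bases before the most upstream start with an entry for the gene in the RefSeq promoter table used here (GRCm38.p6), 5' to 3' on the gene's strand, and capitals mark every match to the GC box GGGCGG or its reverse complement CCGCCC. The first is at chr7:91090536-91090785 on the plus strand, the next at chr11:70016953-70017202 on the plus strand, the next at chr15:89499358-89499607 on the plus strand, and the last at chr7:81706926-81707175 on the minus strand.
Dlg2: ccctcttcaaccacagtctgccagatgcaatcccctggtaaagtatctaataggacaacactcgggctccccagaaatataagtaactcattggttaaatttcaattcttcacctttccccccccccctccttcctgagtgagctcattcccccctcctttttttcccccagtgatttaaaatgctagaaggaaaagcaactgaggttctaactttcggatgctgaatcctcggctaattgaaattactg
Dlg4: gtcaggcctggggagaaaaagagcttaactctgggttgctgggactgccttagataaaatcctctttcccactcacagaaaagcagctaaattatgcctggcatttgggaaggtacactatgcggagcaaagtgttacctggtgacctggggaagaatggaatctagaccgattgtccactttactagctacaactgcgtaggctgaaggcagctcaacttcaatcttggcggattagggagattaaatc
Shank3: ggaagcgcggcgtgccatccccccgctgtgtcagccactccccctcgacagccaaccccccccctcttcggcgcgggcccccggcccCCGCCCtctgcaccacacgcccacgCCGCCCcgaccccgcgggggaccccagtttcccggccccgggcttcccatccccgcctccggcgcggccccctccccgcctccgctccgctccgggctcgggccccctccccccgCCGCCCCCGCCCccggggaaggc
Homer2: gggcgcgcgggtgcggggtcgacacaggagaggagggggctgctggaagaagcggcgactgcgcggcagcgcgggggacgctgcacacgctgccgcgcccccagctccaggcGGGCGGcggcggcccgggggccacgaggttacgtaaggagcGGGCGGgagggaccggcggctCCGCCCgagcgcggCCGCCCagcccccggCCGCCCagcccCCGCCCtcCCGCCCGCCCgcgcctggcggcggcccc

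The Shank3 window was 82.4% G or C with 4 GC boxes and the Homer2 window 83.2% with 8, some of them overlapping. The Dlg2 window was 45.2% G or C and the Dlg4 window 47.2%, and neither holds a GC box. Promoter entries matched 7 of the 9 members, with 14 windows in all. A GC box was in 5 of these 14 windows, 1 each of Dlg3, Dlg4, Shank3, Homer2 and Homer3, against 32.7% of all 32851 promoter windows of that length and 57.7% of the 12385 that belong to tested genes. The letters TATAAA, searched on both strands, were in 1 window of Dlg2 and 1 of Homer2, against 12.4% of all windows and 6.22% of those of tested genes. The annotated spans of Dlg2 and Shank3 begin further upstream than the printed windows, and which start was used in these animals was not measured.

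Within its family each member took a share of the summed FPKM, a description given here without a test. Among Dlg1 to Dlg4, Dlg4 took 62.3 ± 2.77% (SD, n = 8) in the arm labelled WT, 62.1 ± 2.75% (SD, n = 8) in the untrained arm labelled KO and 62.7 ± 2.22% (SD, n = 8) in the trained arm. Dlg2 took 17.6 ± 1.53%, 17.5 ± 1.75% and 16.2 ± 1.53%, and Dlg3 took 10.2 ± 0.353%, 10.4 ± 0.750% and 10.9 ± 0.618% (SD, n = 8 each). Among the Shanks, Shank1 took 52.9 ± 2.49%, 52.2 ± 2.17% and 51.2 ± 1.76% (SD, n = 8 each), slightly over the sum of the other members. In the Homer family the shares differed more between arms. Homer2 took 22.4 ± 3.65%, 22.2 ± 5.56% and 16.1 ± 1.74% (SD, n = 8 each), while Homer1, the family's activity-regulated gene, took 70.9 ± 5.07%, 70.7 ± 7.16% and 77.3 ± 4.72%. The share of Homer2 in the trained arm, 13.7 to 18.9%, overlapped that in the untrained arm labelled KO, 17.0 to 34.8%.

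The first comparison asked whether scaffold RNA differed with the genotype label in untrained animals. None of the 9 members passed, beside 1.42% of all 12572 genes tested (limma on log2(FPKM + 1) with sex as a covariate, Benjamini-Hochberg adjusted p under 0.05). At an unadjusted p under 0.05 the count was 1 of 9, beside 1600 of all 12572 genes. That member was Dlgap1, with a log2 change of -0.13 (SE 0.0583, 95% interval -0.26 to -0.01, limma adjusted p = 0.337). The arms overlapped between 73.0 and 81.8 FPKM. Changes of the other members ran from -0.06 for Dlg2 to 0.05 for Homer3. The 95% intervals of the 9 members together span -0.26 to 0.20 on the log2 scale. The median change was -0.03 over the members and 0.00 over all genes tested.

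Leaving out animal 480 left the count at 0 of 9 members, beside 2.7% of all genes. Dlgap1 then had a log2 change of -0.08 (SE 0.0341, 95% interval -0.15 to -0.01, limma adjusted p = 0.228), its size falling by more than 1.5 times. Shank1 went from -0.04 to 0.02 and Homer2 from -0.02 to -0.08, each with an interval that includes 0. With animals numbered under 1000 alone, 0 of 9 members passed, beside 1.01% of all genes.

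The second comparison asked whether trained and untrained animals labelled KO differed. None of the 9 members passed, beside 5.67% of all genes. At an unadjusted p under 0.05 there was 1 of 9, beside 2989 of all 12572 genes. That member was Dlg3, at 40.3 to 47.2 FPKM (median 42.6) in trained and 35.5 to 44.6 FPKM (median 39.9) in untrained animals, which overlap. The highest untrained value was that of animal 480, and without it the untrained range ended at 41.6 FPKM, a narrower overlap. The log2 change of Dlg3 was 0.11 (SE 0.0465, 95% interval 0.01 to 0.21, limma adjusted p = 0.171). Without animal 480 it was 0.13 (SE 0.0447, limma adjusted p = 0.0894), and 0 of 9 members passed beside 6.78% of all genes. Shank1 was at -0.10 (95% interval -0.27 to 0.06) with all libraries and -0.16 (95% interval -0.29 to -0.02, limma adjusted p = 0.137) without animal 480, and at 0.00 (95% interval -0.12 to 0.12, limma adjusted p = 0.976) after a correction for transcript GC content and length.

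Homer3 had the widest interval in the training comparison, -0.19 to 0.50 around a log2 change of 0.15. Trained female 2 had 7.87 FPKM from 354 reads (95% Poisson interval 7.07 to 8.74 FPKM, counting error only), while the other 7 trained animals had 2.22 to 3.21 FPKM. Without that animal the change of Homer3 was -0.01 (limma adjusted p = 0.932). In the same library the 8 cortical pyramidal markers summed to 605.4 FPKM and the 9 striatal markers to 99.4 FPKM, both the lowest of the trained arm, whose highest sums were 782.5 and 301.4 FPKM. Their part in the level of Homer3 was not tested.

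With a covariate for animal numbers over 1000, which leaves the 2 untrained males numbered over 1000 to separate training from number, the 3 Shank genes moved furthest among the members. Shank1 had a log2 change of -0.38 (SE 0.101, 95% interval -0.60 to -0.17, limma adjusted p = 0.232), Shank2 -0.22 (SE 0.108, limma adjusted p = 0.497) and Shank3 -0.18 (SE 0.0872, limma adjusted p = 0.488). Among males numbered over 1000 alone, 4 trained and 2 untrained, the values were -0.39, -0.19 and -0.23. In those males Shank1 was at 44.2, 47.1, 49.2 and 49.2 FPKM after training and at 62.1 and 62.6 FPKM without it, which do not overlap. The untrained males labelled KO numbered under 1000 were at 56.1 FPKM and, in animal 480, 41.5 FPKM. Females labelled KO overlapped, with 44.5 to 57.4 FPKM (mean 51.1) after training and 49.1 to 53.5 FPKM (mean 50.9) without it. No gene of the 12572 passed in either fit, with 1306 and 1320 at an unadjusted p under 0.05. None of the Shank values of these fits is therefore a call.

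The third comparison set trained animals labelled KO against untrained animals labelled WT, so that both labels and, for all but 1 animal, the animal numbers differ. It shares its libraries with the other arm comparisons. Of the 9 members 1 passed, beside 24.5% of all genes. Dlgap1 had 66.3, 70.4, 71.6, 73.2, 73.3, 75.3, 75.7 and 78.8 FPKM in the trained animals and 73.0, 78.1, 79.1, 79.9, 82.8, 83.7, 83.9 and 84.4 FPKM in the animals labelled WT. The arms overlap, since 2 of the animals labelled WT, at 73.0 and 78.1 FPKM, lie within the trained range. Dlgap1 fell by 0.14 on the log2 scale (SE 0.0405, 95% interval -0.23 to -0.06, limma adjusted p = 0.0176), a change of -9.27% in FPKM + 1. The call was kept in all 16 fits that left out 1 library and was lost with all 24 libraries in one fit (log2 change -0.14, SE 0.0531, limma adjusted p = 0.0624). It was also lost with the animal-number covariate (log2 change -0.21, SE 0.0891, limma adjusted p = 0.453), where the change was larger, its error wider and 22 genes passed in all. Dlgap1 and Thbs2, a gene of the KO label, both lie on chromosome 17, with annotated spans beginning at bases 69969073 and 14665500. The part of this shared chromosome in the call was not tested.

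Dlg2 and Shank1 lay on the same side without passing. Dlg2 had a log2 change of -0.12 (SE 0.0486, limma adjusted p = 0.0747) and Shank1 of -0.15 (SE 0.0712, limma adjusted p = 0.139). Both passed when every library was scaled to the same FPKM sum, which moved the median of all genes to -0.03. In that fit 25.5% of all genes passed. With GC content and length corrected, Dlg2 was at -0.07 (limma adjusted p = 0.155) and Shank1 at -0.06 (limma adjusted p = 0.306). Leaving out trained male 4 let Dlg2 pass, with -0.15 (limma adjusted p = 0.0134). Dlg3 was at 0.08 and Dlg4 at 0.00 (95% interval -0.08 to 0.09), while Shank2, Shank3 and Homer2 ran from -0.10 to -0.04 and Homer3 was at 0.21 with an interval from -0.10 to 0.51.

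**Figure D2:**
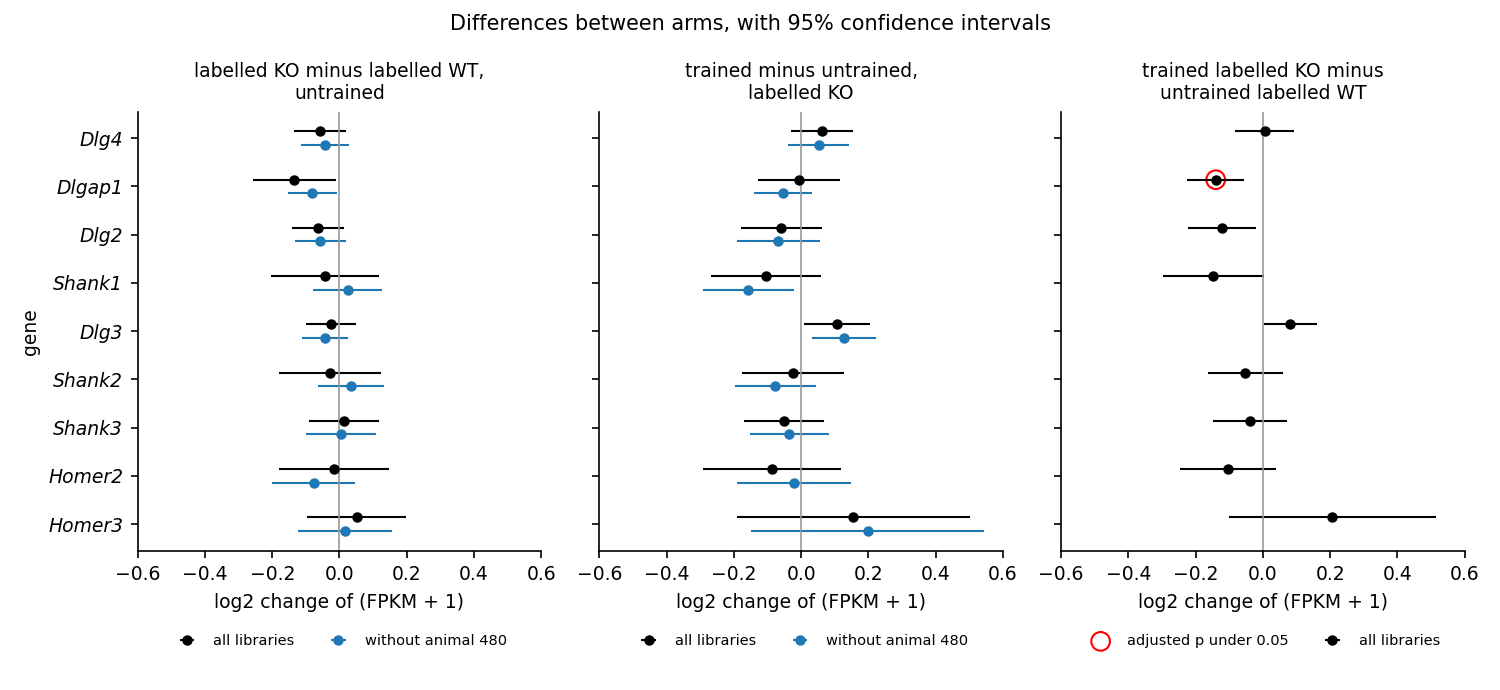
Log2 change of FPKM + 1 for each scaffold gene in the 3 comparisons of arms, with 95% confidence intervals from limma, for all libraries (black) and without animal 480 (blue, where that animal belongs to the comparison). A red ring marks the 1 member that passed, Dlgap1 in trained animals labelled KO against untrained animals labelled WT.

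The wider postsynaptic list held 55 other genes, chosen with earlier results of these data known. With the genotype label 0 of 55 passed, beside 1.42% of all genes, and with training 3 of 55 passed, or 5.45%, beside 5.67% of all genes. Homer1, partner of Shank and of metabotropic receptors, rose by 0.46 (SE 0.126, limma adjusted p = 0.0412), from 18.1 to 35.3 FPKM (median 31.3) in untrained to 29.9 to 46.6 FPKM (median 39.2) in trained animals labelled KO. Its table entry does not separate the long from the short activity-induced form. Nlgn1, a neuroligin whose partner is presynaptic neurexin, fell by 0.27 (SE 0.0525, limma adjusted p = 0.0085), from 13.9 to 19.9 FPKM (median 16.5) to 11.2 to 15.0 FPKM (median 14.0). Zdhhc5, a palmitoyl transferase of synaptic proteins, rose by 0.20 (SE 0.0522, limma adjusted p = 0.0344), from 14.0 to 17.8 FPKM (median 16.6) to 17.0 to 20.1 FPKM (median 19.3). The arms overlap for all 3 genes. Without animal 480, whose Homer1 was the lowest of its arm, the same 3 genes passed: Homer1 rose by 0.38 (limma adjusted p = 0.0427), Nlgn1 fell by 0.26 (limma adjusted p = 0.01) and Zdhhc5 rose by 0.18 (limma adjusted p = 0.0426). With the animal-number covariate none of the 3 passed, as for every gene in that fit, and their directions were the same. Homer1 was at 0.33 (SE 0.213, limma adjusted p = 0.624), Nlgn1 at -0.17 (SE 0.0839, limma adjusted p = 0.509) and Zdhhc5 at 0.11 (SE 0.0848, limma adjusted p = 0.675). After the GC and length correction Nlgn1 did not pass (log2 change -0.16, limma adjusted p = 0.1). In trained animals labelled KO against untrained animals labelled WT 14 of 55 passed, 4 higher and 10 lower, or 25.5% beside 24.5% of all genes. They include Dlgap2, a relative of Dlgap1, which fell by 0.29 (SE 0.0733, limma adjusted p = 0.0086), while Dlgap3 was at -0.08 and Dlgap4 at 0.00.

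For sex 3 of 9 members passed, beside 28.6% of all 12572 genes, in a fit over the 24 libraries with arm as a covariate. Dlg4 in the arm labelled WT was at 221.4, 228.7, 231.4 and 234.2 FPKM in females and 249.7, 260.6, 275.9 and 280.1 FPKM in males. In the untrained arm labelled KO it was at 212.8, 218.7, 231.5 and 232.8 FPKM in females and 237.2, 249.5, 259.2 and 260.6 FPKM in males. The sexes do not overlap in either untrained arm. In trained animals they do, with 232.8 to 252.7 FPKM in females and 236.8 to 274.9 FPKM in males. The log2 change of Dlg4, male minus female, was 0.16 (SE 0.0325, 95% interval 0.10 to 0.23, limma adjusted p = 0.00104), or 12.0% of FPKM + 1.

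Shank3 was higher in males by 0.13 (SE 0.0441, 95% interval 0.04 to 0.22, limma adjusted p = 0.0314). Its values were 19.8 to 24.01 FPKM (median 22.0) in the 12 females and 20.7 to 28.1 FPKM (median 23.9) in the 12 males, which overlap. By arm, female and male means were 21.75 and 24.53 FPKM with the WT label and 21.31 and 25.51 FPKM in untrained animals labelled KO. Only in the latter did the sexes not overlap. In trained animals the means were 22.65 FPKM in females and 22.25 FPKM in males. Dlg2 was lower in males by 0.11 (log2 change -0.11, SE 0.0399, 95% interval -0.20 to -0.03, limma adjusted p = 0.036). It was at 70.3 to 74.8 FPKM in females and 64.2 to 69.3 FPKM in males of the arm labelled WT and at 66.0 to 78.3 FPKM and 60.3 to 64.6 FPKM in the untrained arm labelled KO, with no overlap. In trained animals females were at 61.5 to 66.9 FPKM and males at 53.2 to 72.2 FPKM, which overlap; whether the sex difference changes with training was not tested. Dlg3, the X-linked member, had a log2 change of 0.07 (95% interval 0.00 to 0.13, limma adjusted p = 0.115). The 9 striatal markers had a median log2 change of 0.42, male minus female, against 0.01 for all genes. None of these 9 markers passed, beside 28.6% of all genes. Their part in the sex values of the members was not tested.

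Without animal 480 the same 3 members passed, beside 33.0% of all genes: Dlg4 at 0.17 (limma adjusted p = 0.000581), Shank3 at 0.12 (limma adjusted p = 0.0423) and Dlg2 at -0.11 (limma adjusted p = 0.044). The sex values depended on the scaling. After a correction for transcript GC content and length only Dlg4 passed, at 0.25 (SE 0.0397, limma adjusted p = 0.001), beside 4.97% of all genes in that fit. Dlg2 was then at 0.00 (limma adjusted p = 0.982) and Shank3 at 0.03 (limma adjusted p = 0.677). The longest transcripts of Dlg2 and Dlg4 are 44.3% and 46.8% G or C, and that of Shank3 is 62.4%. Within a library, reads per FPKM follow the length used for FPKM. Female 1 labelled WT had 10130 reads at 234.2 FPKM for Dlg4 and 1834 reads at 19.78 FPKM for Shank3. Their longest transcripts have 6326 and 7365 bases, so the Dlg4 length behind FPKM is shorter than the one used for the correction. The part of this in the corrected Dlg4 value was not tested. With quantile normalization Dlg4 was at 0.05 (limma adjusted p = 0.129) while Dlg2 and Shank3 passed, beside 28.0% of all genes. Of the 24 fits that left out 1 library, Dlg4 passed in 24, Shank3 in 17 and Dlg2 in 16. Each library whose removal ended a call is among untrained animals, but for trained male 3 and Dlg2, with limma adjusted p from 0.052 to 0.0704. With the animal-number covariate Dlg4 alone of the members passed, beside 21.5% of all genes. Among the 55 other postsynaptic genes 19 passed for sex, 9 higher and 10 lower in males, or 34.5% beside 28.6% of all genes. Without animal 480 the count was 28 of 55, or 50.9% beside 33.0% of all genes, and with GC content and length corrected 1 of 55 passed.

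**Figure D3:**
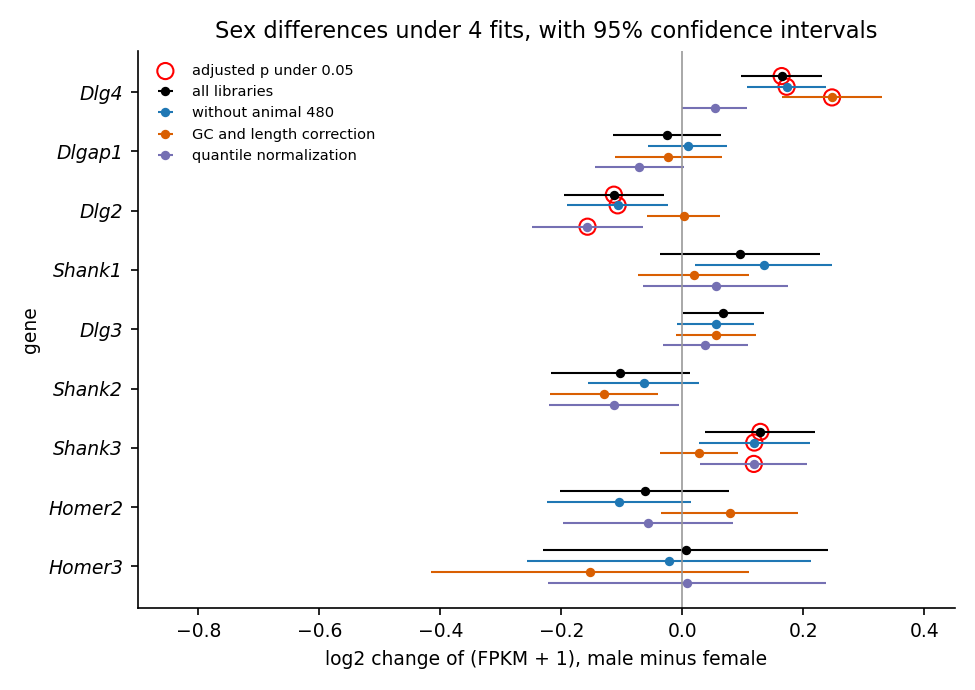
Log2 change of FPKM + 1, male minus female, for each scaffold gene under 4 fits, with 95% confidence intervals from limma and red rings at an adjusted p under 0.05. Dlg4 lies at 0.16 with all libraries, 0.25 after GC and length correction and 0.05 with quantile normalization, and Dlg2 and Shank3 lie near 0 after the GC and length correction.

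Animal 480 differed from the other animals in a part of the scaffold set. Shank1 was at 41.5 FPKM against 44.2 to 66.6 FPKM in the other 23 libraries, Shank2 at 18.1 against 19.9 to 30.1 FPKM and Dlgap1 at 57.3 against 66.3 to 84.4 FPKM. These 3 members were below all 23 other libraries. Homer2 at 11.6 FPKM was above all 23, whose highest was 10.6 FPKM. Dlg3 at 44.6 FPKM and Homer3 at 3.57 FPKM were above the other 7 animals of its arm, and Dlg2, Dlg4 and Shank3 were inside their range. Dlg4 was at 237.2 FPKM against 212.8 to 260.6 FPKM. Of the relatives, Dlg1 at 23.4 FPKM and Homer1 at 18.1 FPKM were below all 23 others, whose lowest values were 35.3 and 19.3 FPKM.

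The family shares of that animal moved accordingly. Shank3 took 30.6% of Shank FPKM in animal 480, against 22.1 ± 1.06% (SD, n = 7) in the rest of its arm, and Homer2 took 34.8% of Homer FPKM against 20.4 ± 2.38% (SD, n = 7). Dlg1 took 6.38% against 10.5 ± 1.01% (SD, n = 7). In the same library 8 cortical pyramidal markers summed to 235.1 FPKM against 598.7 to 732.9 FPKM in the rest of the arm, none of them at 0, and 7 of the 8 were below all other libraries. The 9 striatal markers summed to 789.9 FPKM against 98.4 to 409.5 FPKM, and 6 septal markers to 117.1 FPKM against 20.95 to 26.8 FPKM, with none at 0. Their part in the scaffold values of this animal was not tested.

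**Figure D4:**
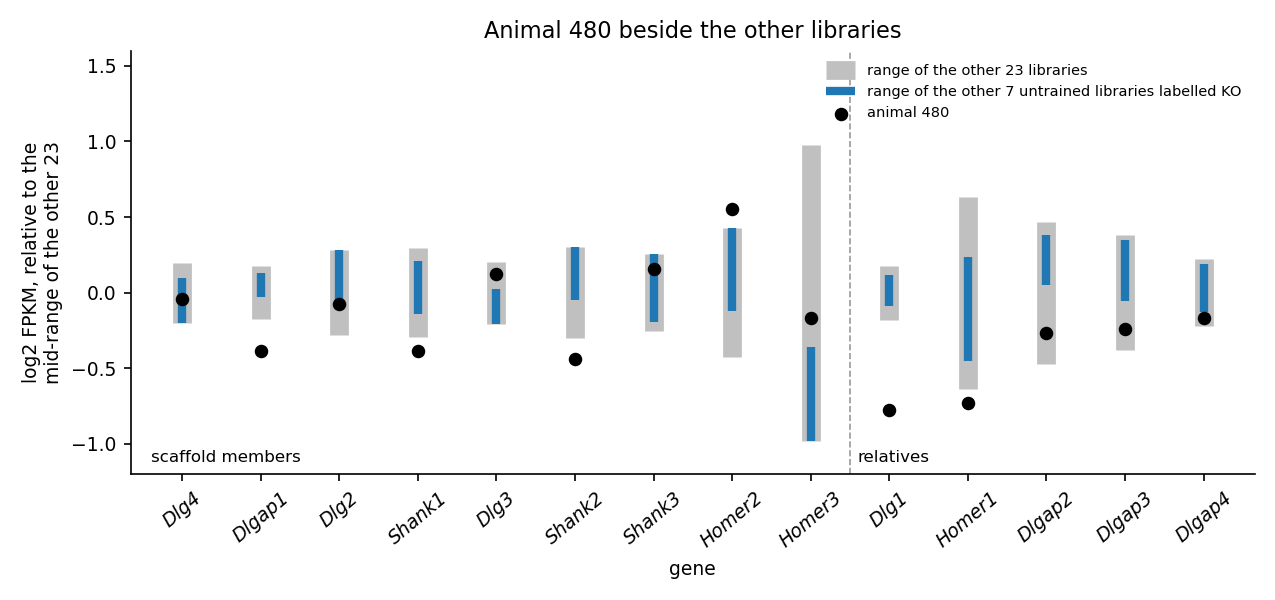
FPKM of animal 480 (black points) as a log2 ratio to the mid-range of the other 23 libraries, whose range is grey; the range of the other 7 untrained libraries labelled KO is blue. Shank1, Shank2, Dlgap1, Dlg1 and Homer1 lie below both ranges, Homer2 lies above both, and Dlg4 and Shank3 lie inside both.

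The members were also compared with each other across animals, on log2(FPKM + 1) after removing arm and sex, over the 23 libraries without animal 480. Of the 36 pairs 25 had a positive Pearson correlation, with a median r of 0.21 and a range from -0.274 to 0.65. Permutation p-values (100000 permutations, 2-sided), adjusted over the 36 pairs, passed 0.05 for 3 pairs, all positive. Shank1 and Shank3, partners in the deep layer of the density, had r = 0.646 (permutation p = 0.00107, adjusted 0.0257) and rho = 0.661 (permutation p = 0.00093, adjusted 0.0335). Dlg2 and Homer2 had r = 0.65 (permutation p = 0.00143, adjusted 0.0257) and rho = 0.533 (permutation p = 0.00964, adjusted 0.116). Dlg4 and Shank1 had r = 0.595 (permutation p = 0.00257, adjusted 0.0308) and rho = 0.505 (permutation p = 0.0155, adjusted 0.139). Thus by rank only the pair of Shank1 and Shank3 passed.

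Without the 2 libraries farthest from the median of the first gene, r was 0.54 for Shank1 and Shank3, 0.427 for Dlg2 and Homer2 and 0.541 for Dlg4 and Shank1. Among the 12 animals numbered under 1000 the values were 0.502, 0.904 and 0.622, and among the 11 numbered over 1000 they were 0.299, 0.671 and 0.369, all positive. After the correction for transcript GC content and length r was -0.154 for Shank1 and Shank3, 0.331 for Dlg2 and Homer2 and 0.316 for Dlg4 and Shank1. The longest transcripts of Shank1 and Shank3 are 61.4% and 62.4% G or C, and those of Dlg2 and Homer2 are 44.3% and 44.4%, so these 2 pairs are alike in base composition. By longest transcript the third pair is not, with 46.8% for Dlg4 and 61.4% for Shank1. The Dlg4 length behind FPKM is shorter than that transcript, so the base composition of the Dlg4 RNA counted is not known here. The promoter windows printed above differ in base composition for Dlg2, 45.2% G or C, and Homer2, 83.2%. The part of base composition in these correlations was not tested beyond that correction.

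**Figure D5:**
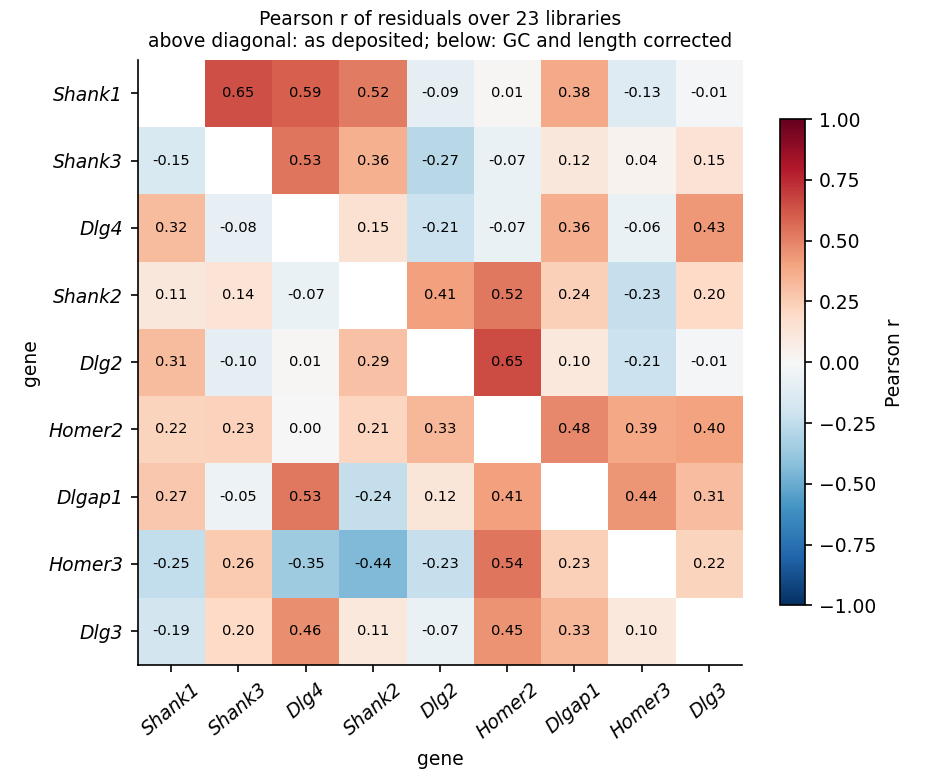
Pearson r between scaffold genes over 23 libraries, from residuals after arm and sex, as deposited (above the diagonal) and after GC and length correction (below it). Shank1 with Shank3 goes from 0.646 above the diagonal to -0.154 below it.

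Prrc2b, 4931428F04Rik and Kif26b were among the 5 of the 12563 other tested genes whose residuals over the 23 libraries followed the mean of the 9 standardized members most closely, a description given without a test. These 3 genes had r from 0.794 to 0.8, and 0.579 to 0.687 after the GC and length correction. Of the 55 postsynaptic genes 6 were among the first 100, and the median r of all 55 was 0.331 against 0.0199 for all genes.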

How the data were processed

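The authors' deposited table gives FPKM per gene and library; its columns were matched to samples by animal numbers in the labels. The submitters' processing notes name mm10, FastQC 0.11.7, Trimmomatic 0.38, STAR 2.5.3a, Subread 1.6.3 and featureCounts. Per the labels, the mRNA kit kept strand. Whole reads were recovered from the deposited FPKM for 15230 of 15232 genes (tolerance 0.01 reads). Comparisons of arms used limma 3.58.1 (R 4.3.3, eBayes with trend=TRUE) on log2(FPKM + 1) over the 12572 genes with a mean of at least 1 FPKM, with only the arms compared and sex as a covariate, with Benjamini-Hochberg adjustment at 0.05; the sex fit took all 24 libraries and kept arm as covariate. Log2 changes on this scale understate changes of low genes. Intervals are 95%. Tested on simulated data, the fits called 197 to 200 of 200 genes changed 2-fold, with 7 to 14 other calls, over 12524 to 12534 genes. The simulated noise was independent, with each gene's spread taken from the arm labelled WT. With all libraries the largest member change between arms was 0.21 on the log2 scale. How often changes of that size would be called was not simulated.

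Replicate numbers name different animals: same-numbered animals of 2 arms had mean residual correlations of 0.0247, -0.0701 and -0.102. GC content and length of the longest GENCODE M21 transcript (96.4% of tested genes) were corrected in 20 bins. Tables and correlations were computed in Python 3.11.15 (pandas 2.3.3, numpy 2.4.6, scipy 1.17.1), and voom on recovered reads used limma. Named were all 9 members, their relatives Dlg1, Dlgap2, Dlgap3, Dlgap4 and Homer1, Thbs1 and Thbs2, postsynaptic genes that passed with genotype label or training, and genes among the 5 most like the members; some items are not reported here. Members and gene lists were chosen with earlier results of these data known. The 9 striatal markers summed to 106.5 to 406.4 FPKM (median 141.1) in the arm labelled WT. Their sums were 98.4 to 789.9 FPKM (median 112.7) in the untrained arm labelled KO and 99.4 to 301.4 FPKM (median 138.5) in the trained arm. For trained KO against WT their median log2 change was -0.42, and 0 of 9 passed beside 24.5% of all genes. Their part in the member values was not tested. Markers of astrocytes, oligodendrocytes, microglia, endothelium and interneurons were also summed: astrocyte sums were 560.8 to 682.5, 598.0 to 763.0 and 589.7 to 724.6 FPKM in the 3 arms, oligodendrocyte sums 934.6 to 1489, 659.6 to 1220 and 984.8 to 1646, microglial sums 138.6 to 162.5, 133.4 to 158.8 and 129.8 to 145.3, endothelial sums 20.9 to 32.8, 21.5 to 35.8 and 25.2 to 40.6, and interneuron sums 434.4 to 619.5, 506.1 to 709.2 and 516.6 to 673.8.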

Additional observations from a re-analysis of the deposited data

Results flagged for a closer look

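In 27 groups of 8 animals (9 scaffold genes in 3 arms), the gap between the most extreme animal and its neighbour was compared with the range of the group at Dixon's 95% critical value. Homer3 in trained female 2, at 7.872 FPKM, lay 0.825 of the range from the next trained animal. Dlgap1 in animal 480, an untrained male labelled KO, at 57.34 FPKM, lay 0.648 of the range below the next animal. Chance gives about 1.35 such groups of 27.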

How the results depend on the processing

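Of 1184 member values under other settings, 1102 kept direction and side of the threshold, 46 changed sign, 28 lost and 8 gained a call; the causes were not tested. Directions are read from values rounded to 2 decimals, and none of the values that changed sign was a call except Dlg2 for sex.

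Replicate numbers pair no animals; with the replicate block 114, 29 and 1614 genes passed for genotype label, training and trained KO against WT, and Homer3 for sex was -0.02; Dlg2 for sex lost its call (limma adjusted p = 0.0602). For genotype label, 179 genes became 98 without the sex covariate, 297 with array weights, 292 without animal 480 with the animal-number covariate, 382 without animal 480 with the GC and length correction, and 115 to 340 leaving out 1 library, the highest without animal 480. For training, 713 became 1238 with all 24 libraries, 422 without the sex covariate and 2020 with array weights. In the fit with array weights 1 member, Dlg3, passed at 0.13, beside 16.1% of all genes. The count for training was 1242 without animal 480 with the GC correction. It was 330 to 945 leaving out 1 library, the lowest without untrained KO female 1. It was 0 in limma with the animal-number covariate (1306 unadjusted), with that covariate without animal 480 (1769) and in males numbered over 1000 (1320). For trained KO against WT, 22 genes passed with the animal-number covariate. At equal FPKM sum 3 members passed, beside 25.5% of all genes. With quantile normalization 2 members passed, beside 23.7%, and with array weights 2, beside 28.9%. With all 24 libraries 0 members passed, beside 20.6%, and with the covariate 0, beside 0.175%. Leaving out 1 library, 1 to 2 members passed, beside 18.8% to 27.2% of all genes. For sex, 602 genes passed with the GC correction, or 4.97%, and 786 with it without animal 480, or 6.49%. In each of these fits 1 member passed. With the animal-number covariate 1 member passed with animal 480 and 1 without it, beside 21.5% and 21.9% of all genes. Leaving out 1 library, 1 to 3 members passed, beside 23.8% to 33.7% of all genes.

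Values that changed sign for genotype label were Shank2 at 0.04 (array weights) and 0.02 (both fits without animal 480 with a second change), Shank3 at -0.02 (the same fits) and Homer2 at 0.01 (animal-number covariate) and 0.03 (numbers under 1000). Leaving out 1 library, Shank1 ran from -0.07 to 0.02, Shank2 from -0.07 to 0.03, Shank3 from -0.02 to 0.03 and Homer2 from -0.08 to 0.02. For training, in males numbered over 1000 Dlg2 was 0.02 and Homer3 -0.03; with the GC correction Shank2 was 0.02, Shank3 0.01 and Dlgap1 0.01; without animal 480 as well, Shank3 was 0.04 and Homer2 0.06; with the covariate Homer2 was 0.02. Leaving out 1 library, Homer3 ran from -0.01 to 0.21 and Dlgap1 from -0.05 to 0.02. For trained KO against WT, Shank3 was 0.02 with the GC correction. For sex, Homer2 was 0.08 with the GC correction, 0.04 without animal 480 as well and 0.05 in numbers under 1000; Homer3 was -0.03 at equal FPKM sum, -0.15 with the GC correction, -0.19 without animal 480 as well and -0.04 without it with the covariate; without animal 480 with the GC correction Dlg2 was 0.01 and Dlgap1 0.01, and Dlgap1 was 0.01 with array weights. Leaving out 1 library, Homer3 ran from -0.03 to 0.12 and Dlgap1 from -0.04 to 0.01.

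At equal FPKM sum the share of calls that were higher went from 61.7% to 37.9% for training, from 52.9% to 34.1% for trained KO against WT and from 51.7% to 27.2% for sex; voom gave 49.4% for training and the GC correction 62.5% for sex. Depth limits Homer3 most, at 78 to 354 reads.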
